A study of Mus musculus with 8 samples.

Results

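The genes described here are 10 markers of skeletal and cardiac muscle, chosen by symbol from the 50578 genes of a count table: Myod1, Myog, Myf5, Pax7, Des, Acta1, Actc1, Myh3, Tnnt2 and Ttn. Their reads were compared in mouse embryonic fibroblasts (MEFs), primary cells of connective tissue cultured from embryos, and in MEFs given carbidopa, LY-364947 or CHIR-99021. There were 2 libraries per group and 8 in all, and every group carried the same wild-type (WT) genotype. The MEFs came from mid-gestation C57BL/6J embryos without head, tail, limbs and internal organs, and were used at passage 3 to 5. The MEF group is labelled Control, and the sources used here do not say whether it received a vehicle. Each compound was given at 10 µM, and the length of treatment of these libraries is not given in the sources used here. The sample labels spell LY-364947 as LY-364747. They call the treated cells hepatic-like, and the authors report higher hepatocyte genes by qRT-PCR, stains for glycogen and lipid, and clustering near hepatic progenitor-like cells. In the libraries used here, 5 hepatocyte genes, Alb, Ttr, Apoa1, Afp and Hnf4a, were near 0. They had at most 10 reads in any library and at most 2 in a MEF library. The qRT-PCR gave levels relative to control cells for Alb, Hnf4a, Cyp1a1 and Cyp2a1, which is not the same measure as these counts. Carbidopa blocks aromatic amino acid decarboxylase, LY-364947 blocks the type I TGF-beta receptor kinase, and the target of CHIR-99021 is GSK3, a kinase that restrains Wnt signaling. Total counts ranged from 15039566 to 20504338 per library. Nothing in the labels says that the libraries of a group came from separate cultures, so p-values measure only the spread between these libraries, which may be technical.

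Skeletal muscle forms when Pax7 marks its stem cells and the factors Myf5, Myod1 and Myog, which bind DNA at E-boxes, commit and differentiate myoblasts. Differentiated muscle then makes the contractile sarcomere: actin thin filaments with the troponin complex that senses calcium, myosin thick filaments, the spring-like protein titin that spans between them, and desmin filaments that tie neighbouring sarcomeres together. Several of these genes are not restricted to striated muscle, since cultured fibroblasts and smooth muscle can also use desmin and the contractile actins.

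The regulators of the muscle lineage were close to absent in all groups. Myod1, Myog, Myf5 and Pax7 together had 6 reads out of 142097851 counts, and 26 of their 32 library values were 0. Myod1 had 1 read, in 1 carbidopa library. Myog, which drives terminal differentiation, had 1 read in 1 MEF library and 1 read in 1 carbidopa library. Myf5 had 1 read, in 1 MEF library. Pax7 had 1 read in 1 carbidopa library and 1 read in 1 CHIR-99021 library. No regulator could be compared between groups at this depth. A count of 0 over both libraries of a group allows up to 3 reads, which is 0.104 CPM (counts per 1000000 counts) in MEFs, 0.0702 CPM in carbidopa, 0.0819 CPM in LY-364947 and 0.0866 CPM in CHIR-99021. These limits and all count intervals cover counting error only. CPM values are on library sizes scaled by TMM (trimmed mean of M-values).

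The embryonic myosin heavy chain and cardiac actin were also near 0. Myh3, the heavy chain of embryonic skeletal muscle, had 0 reads in both MEF libraries, 2 and 0 in carbidopa, 0 and 3 in LY-364947, and 4 and 0 in CHIR-99021. Actc1, the alpha-actin of heart, had 2 and 1 reads in MEFs, 0 in all carbidopa and LY-364947 libraries, and 0 and 1 in CHIR-99021. Both genes overlapped between groups or lay within the limit that a count of 0 allows, so no difference was detectable. Of the 10 genes, 4 passed the filter on low counts and were tested: Des, Acta1, Tnnt2 and Ttn. Tnnt2 would not have passed without the MEF libraries (0.572 CPM on unscaled totals in at least 2 libraries), so its being tested already required a high MEF value.

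Des, Acta1 and Tnnt2 were lower in all 3 treatments than in MEFs, and Ttn was not. In counts over all genes tested, 19.7% were called lower under carbidopa, 17.2% under LY-364947 and 20.1% under CHIR-99021, at a Benjamini-Hochberg adjusted p under 0.05 in edgeR's quasi-likelihood test. Of the 4 muscle genes tested, 3 were called lower in each comparison. Des and Acta1 passed the filter on low counts through MEF and treated libraries, but Tnnt2 only through MEFs, which favours a call of lower. The share called higher over all genes was 18.0% under carbidopa, 13.7% under LY-364947 and 18.7% under CHIR-99021, and of the 4 genes 0, 0 and 1 were called higher, respectively. At an unadjusted p under 0.05 the counts called higher were 0, 1 and 1, and with DESeq2 0 were called higher in each comparison. The 3 comparisons share the MEF libraries, so they are not independent of each other. In bulk RNA, fewer cells that express a gene and less RNA per cell cannot be told apart.

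**Figure D1:**
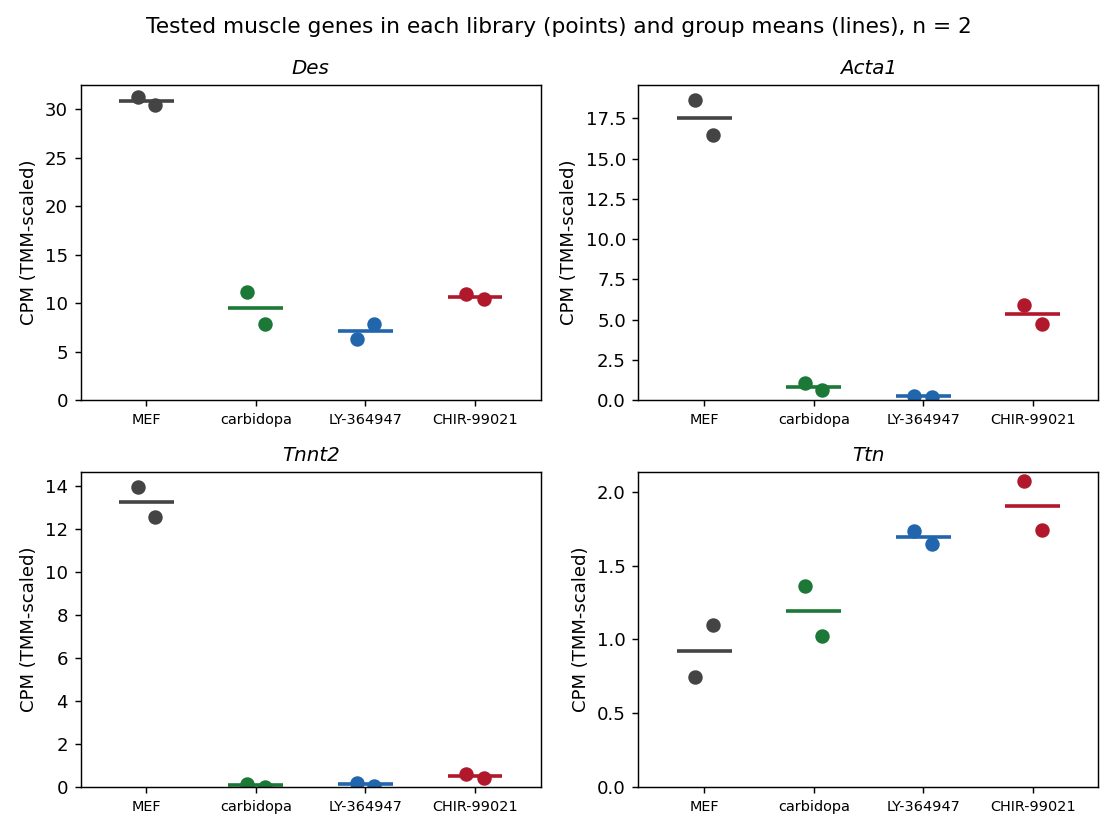
Level of each tested muscle gene in every library in CPM on TMM-scaled library sizes (vertical axes from 0), by group (horizontal axis), with points for libraries and lines for the mean of 2. Both MEF libraries lie above all 6 treated libraries for Des, Acta1 and Tnnt2, whereas Ttn is lowest in 1 MEF library and its MEF and carbidopa values overlap.

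Acta1 encodes the alpha-actin of the skeletal muscle thin filament and lies at chr8:123891769-123894751 on the minus strand of GRCm38, the assembly also called mm10. The 250 bases before its RefSeq start hold a CArG box, the site that serum response factor binds. They are shown because the groups differed most widely at this gene and Tnnt2. Capitals mark a CArG box, the M-CAT motif CATTCC to which TEAD factors bind, the MEF2 site and TATAAA. Sequences are from RefSeq on GRCm38.p6, in the direction of the gene, and the last base is position -1. The gene positions given here are from the GENCODE annotation. Its start differs from the RefSeq start for Acta1, Tnnt2, Des, Actc1, Myog and Pax7, so distances of motifs from the GENCODE start differ too.
Acta1, chr8:123894776-123895025, minus strand: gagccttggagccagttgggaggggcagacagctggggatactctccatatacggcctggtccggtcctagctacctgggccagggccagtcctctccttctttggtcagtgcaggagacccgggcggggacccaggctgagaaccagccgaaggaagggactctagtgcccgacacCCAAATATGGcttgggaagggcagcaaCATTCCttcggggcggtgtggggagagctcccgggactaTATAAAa
Tnnt2, chr1:135836084-135836333, plus strand: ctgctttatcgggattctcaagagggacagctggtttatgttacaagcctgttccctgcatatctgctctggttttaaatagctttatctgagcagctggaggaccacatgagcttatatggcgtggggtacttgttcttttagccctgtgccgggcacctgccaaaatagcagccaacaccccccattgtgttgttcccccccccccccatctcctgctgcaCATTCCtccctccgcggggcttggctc
Des, chr1:75360042-75360291, plus strand: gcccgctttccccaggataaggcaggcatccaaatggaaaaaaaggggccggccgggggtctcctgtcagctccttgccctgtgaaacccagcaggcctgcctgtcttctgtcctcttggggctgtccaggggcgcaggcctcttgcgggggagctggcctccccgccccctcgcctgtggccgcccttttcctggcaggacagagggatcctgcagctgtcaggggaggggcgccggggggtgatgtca
Ttn, chr2:76982548-76982797, minus strand: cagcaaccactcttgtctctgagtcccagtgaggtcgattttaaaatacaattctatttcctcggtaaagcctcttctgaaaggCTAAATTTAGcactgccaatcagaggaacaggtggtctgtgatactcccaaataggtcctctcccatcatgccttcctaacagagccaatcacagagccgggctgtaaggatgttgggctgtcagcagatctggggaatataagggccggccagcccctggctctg
In the Acta1 window the CArG box CCAAATATGG spans -73 to -64, CATTCC spans -46 to -41 and TATAAA spans -7 to -2. The Tnnt2 window shown holds CATTCC at -27 to -22 and no CArG box. Another RefSeq window of Tnnt2, chr1:135836739-135836988, is not shown and holds none of the marked motifs. The Ttn window holds the MEF2 site CTAAATTTAG at -166 to -157. The Des window holds none of the marked motifs.

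Both strands were searched, for these motifs and for the E-box CANNTG. RefSeq windows matched 9 of the 10 genes, and Myod1 was not matched. No marked motif overlapped another. Of 32841 windows of 250 bases, 1.47% held a CArG box, 2.92% a MEF2 site, 12.6% CATTCC, 12.4% TATAAA and 66.2% an E-box. Acta1 had 2 E-boxes, Tnnt2 had 4 in the window shown, Des had 2, Ttn had 1, Myog had 2 and Myh3 had 1, whereas Myf5, Pax7 and Actc1 had none. The other Tnnt2 window had an E-box at -156 to -151. Actc1 also held a CArG box, CCAAATAAGG at -47 to -38. Myh3 held TATAAA at -29 to -24. A match is a description of the letters in a window and not evidence of a bound site.

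**Figure D2:**
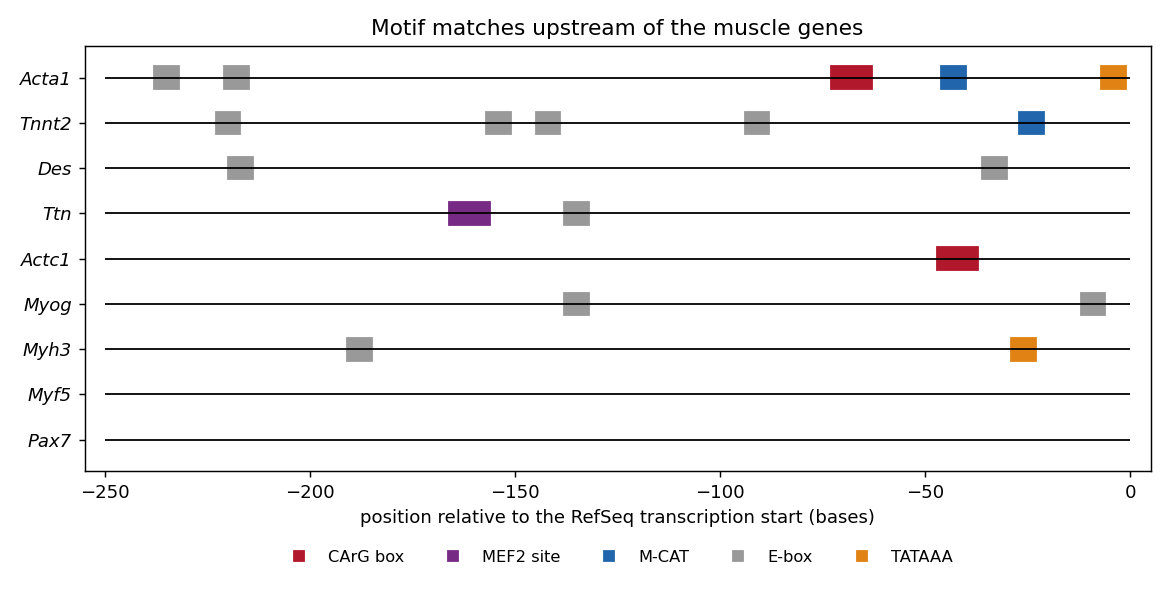
Motif matches in the 250 bases before the RefSeq start of 9 muscle genes (horizontal axis, position in bases relative to the start). For Tnnt2 only the window printed above is drawn. A CArG box is present at Acta1 and Actc1, a MEF2 site at Ttn and an M-CAT motif at Acta1 and Tnnt2, while E-boxes are spread over 6 genes and Myf5 and Pax7 hold none.

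Acta1 had 251 and 255 reads in MEFs, 22 and 14 in carbidopa, 5 and 4 in LY-364947, and 103 and 82 in CHIR-99021. The 4 groups did not overlap, and LY-364947 was lowest. The mean level fell from 17.5 CPM ± 1.56 (SD, n = 2) in MEFs to 0.844 ± 0.270 under carbidopa, 0.247 ± 0.0478 under LY-364947 and 5.34 ± 0.828 under CHIR-99021. The log2 fold change was -4.37 under carbidopa (SE 0.25, adjusted p = 5.31e-07), a level 20.6-fold lower. It was -6.12 under LY-364947 (SE 0.31, adjusted p = 2.29e-07), or 69.4-fold lower. Under CHIR-99021 it was -1.71 (SE 0.20, adjusted p = 9.87e-05), or 3.28-fold lower. Acta1 kept the most of its MEF level under CHIR-99021. Its sequence was nearly its own, since 0.394% of its words of 75 bases occur in another gene, the predicted gene Gm47692.

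Tnnt2 encodes the cardiac form of troponin T, which anchors the troponin complex to tropomyosin, and lies at chr1:135836354-135852260 on the plus strand. It had 188 and 195 reads in MEFs, 3 and 0 in carbidopa, 3 and 1 in LY-364947, and 10 and 7 in CHIR-99021. All treated libraries were far below both MEF libraries, and the CHIR-99021 libraries lay above the others. The mean level was 13.3 CPM ± 0.987 in MEFs (SD, n = 2), 0.0706 ± 0.0998 under carbidopa, 0.111 ± 0.0813 under LY-364947 and 0.491 ± 0.120 under CHIR-99021. From the pooled reads of each group, the MEF level was 188 times that of carbidopa (95% interval 63.9 to 917), 121 times that of LY-364947 (46.9 to 447) and 26.9 times that of CHIR-99021 (16.6 to 46.7). The 3 reads behind the carbidopa value leave its size very loose. The adjusted p was 1.39e-06 under carbidopa, 1.99e-06 under LY-364947 and 5.47e-06 under CHIR-99021. Since Tnnt2 passed the filter on low counts only through MEFs, its being tested already favoured a fall. No word of 75 bases in Tnnt2 occurs in another gene.

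Des encodes desmin, the intermediate filament of muscle, and lies at chr1:75360329-75368579 on the plus strand. It had 421 and 473 reads in MEFs, 238 and 169 in carbidopa, 113 and 148 in LY-364947, and 190 and 180 in CHIR-99021. Every treated library lay below both MEF libraries, but carbidopa overlapped CHIR-99021 in CPM and nearly met LY-364947. The mean level was 30.9 CPM ± 0.555 in MEFs (SD, n = 2), 9.54 ± 2.35 under carbidopa, 7.10 ± 1.09 under LY-364947 and 10.7 ± 0.349 under CHIR-99021. The log2 fold change was -1.70 under carbidopa (SE 0.18, adjusted p = 4.08e-05), -2.12 under LY-364947 (SE 0.18, adjusted p = 1.08e-05) and -1.53 under CHIR-99021 (SE 0.18, adjusted p = 8.37e-05). These are 3.24-, 4.34- and 2.89-fold lower. Des shares 220 exon bases, 5.86% of its exon length, with Gm15179 on the other strand, and whether counting used strand is not given in the sources used here.

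Ttn encodes titin, the longest protein of the sarcomere, and lies at chr2:76703980-76982547 on the minus strand. It had 10 and 17 reads in MEFs, 29 and 22 in carbidopa, 31 and 31 in LY-364947, and 36 and 30 in CHIR-99021. The LY-364947 and CHIR-99021 libraries lay above both MEF libraries, while carbidopa overlapped MEFs in CPM. The mean level was 0.919 CPM ± 0.250 in MEFs (SD, n = 2), 1.19 ± 0.239 under carbidopa, 1.69 ± 0.0629 under LY-364947 and 1.91 ± 0.234 under CHIR-99021. The log2 difference under CHIR-99021 was 1.03 (95% interval 0.24 to 1.82, adjusted p = 0.0415), and the gene was called higher. That call was lost with DESeq2 (adjusted p = 0.211) and when any of the 4 libraries compared was left out (adjusted p from 0.0765 to 0.221), so it rests on every library. The log2 difference of Ttn was 0.86 under LY-364947 (0.07 to 1.66, adjusted p = 0.0962) and 0.36 under carbidopa (-0.45 to 1.18, adjusted p = 0.461), neither of them called. At most 36 reads fell on 116825 exon bases, so Ttn remained near the floor of detection in all groups.

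**Figure D3:**
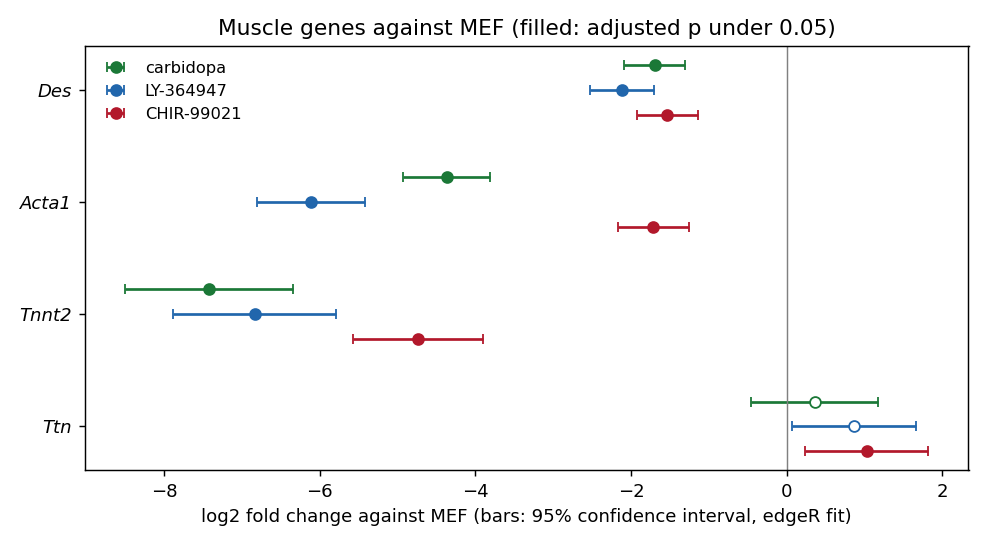
Log2 fold change against MEFs (horizontal axis) of the 4 tested muscle genes under carbidopa, LY-364947 and CHIR-99021, with 95% intervals as bars and filled points for an adjusted p under 0.05. Des, Acta1 and Tnnt2 lie left of 0 in all treatments, from -1.53 to -7.42, and Ttn lies right of 0 with 1 filled point.

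Per kilobase of exon, the order of levels in MEFs was Acta1 at 11.4 CPM per kb, Des at 8.23, Tnnt2 at 1.71, Actc1 at 0.0658, Myog at 0.0216, Myf5 at 0.0178 and Ttn at 0.00787, with Myod1, Pax7 and Myh3 at 0. Actc1 rested on 3 reads, Myog and Myf5 on 1 each, and Ttn on 27, so these have no firm order. The order of Acta1, Des and Tnnt2 also depends on the length used. That length joins all annotated exons of a gene, 1536 bases for Acta1, 3754 for Des and 7752 for Tnnt2, and single transcripts can be shorter. Without division by length, the levels in MEFs were 30.9 CPM for Des, 17.5 for Acta1 and 13.3 for Tnnt2. Acta2, the alpha-actin of smooth muscle, stood at 940 ± 61.5 CPM per kb in MEFs (SD, n = 2), and the enteric smooth muscle actin Actg2 at 27.3 ± 1.92. Skeletal Acta1 was a small fraction of the contractile actin RNA of MEFs.

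The treatments were also compared with each other, in contrasts that leave MEFs out but take their spread from the fit of all 8 libraries. Over all genes tested, 6.62% were called higher and 8.08% lower in CHIR-99021 than in carbidopa, and 6.45% higher and 7.69% lower in CHIR-99021 than in LY-364947. Of the 4 genes tested, Acta1 and Tnnt2 were higher in CHIR-99021 than in carbidopa, and Acta1 was higher in CHIR-99021 than in LY-364947. The Acta1 difference was 2.65 on the log2 scale against carbidopa (SE 0.27, adjusted p = 1.75e-04) and 4.40 against LY-364947 (SE 0.34, adjusted p = 4.50e-05). In pooled reads the latter was 185 against 9, a ratio of 21.7 (95% interval 11.2 to 48.3). The Tnnt2 difference was 2.69 against carbidopa (SE 0.78, adjusted p = 0.0451), from 17 reads against 3, and it was no longer called when carbidopa replicate 2 or either CHIR-99021 library was left out (adjusted p = 0.0902, 0.237 with only the second CHIR-99021 library and 0.0922 with only the other one). Against LY-364947 it was 2.10 (0.44 to 3.76, adjusted p = 0.0924). Des did not pass the threshold between CHIR-99021 and carbidopa (0.16 on the log2 scale, 95% interval -0.24 to 0.57, adjusted p = 0.603) or between CHIR-99021 and LY-364947 (0.59, 0.16 to 1.01, adjusted p = 0.0678). For Ttn the differences were 0.67 (-0.05 to 1.39) and 0.17 (-0.54 to 0.88).

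Few genes were called between LY-364947 and carbidopa, 2 of all genes tested or 0.0132%. None of the 4 muscle genes was called by edgeR's quasi-likelihood test or by DESeq2, whereas 2 had an unadjusted p under 0.05. Acta1 was lower in both LY-364947 libraries than in both carbidopa libraries, at -1.75 on the log2 scale (95% interval -2.74 to -0.76, adjusted p = 0.519). Des was -0.42 (-0.84 to -0.0026, adjusted p = 0.519). The intervals leave room for a difference at both genes.

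The genes most like each tested muscle gene across the 8 libraries were taken by Pearson's r of log2 CPM, as a description with no p, since the libraries fall mainly into MEF and treated ones. Des was most like Penk (r = 0.993), Snx9 (0.992) and Bid (0.991). Acta1 was most like Slc39a6 (0.994), Spata13 (0.993) and Tgif1 (0.990). Tnnt2 was most like Sfxn3 (0.991), Cxcl16 (0.989) and Col5a2 (0.989), and Ttn most like Sgtb (0.961), Mon1b (0.960) and Morn1 (0.956). Among the muscle genes themselves r was 0.957 for Des and Tnnt2, 0.886 for Des and Acta1 and 0.885 for Acta1 and Tnnt2, while Ttn gave -0.66 with Des, -0.41 with Acta1 and -0.55 with Tnnt2. No other muscle gene of the 10 ranked among the 3 most alike.

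Across 162 other genes of muscle in 6 groups, 75 were expressed enough to be tested, and of the 87 that were not, 77 had at most 10 reads in every library. The 75 include genes at high levels in MEFs, such as Vim at 2589 and 2468 CPM and Tpm4 at 817 and 781. Their levels were not matched to those of all genes in the comparison of shares called. Under carbidopa 13 of the 75 were called higher and 31 lower (58.7% called, against 37.7% of all genes). Under LY-364947 it was 15 and 33 (64.0%, against 31.0%), a total of 48 that dropped to 30 without LY-364947 replicate 2 and to 32 without MEF replicate 1, and under CHIR-99021 17 and 26 (57.3%, against 38.8%). The median log2 fold change of the 75 was -0.33, -0.38 and -0.02, against 0.04, 0.03 and 0.04 for all genes. Of the 75, 6 passed the filter on low counts only through the MEF libraries and 9 only through treated ones, which ties their being tested to the direction of their change. Without these 15, calls numbered 9 higher and 26 lower under carbidopa, 9 and 27 under LY-364947, and 15 and 21 under CHIR-99021. Compared with carbidopa, 16 of the 75 were higher and 3 lower in CHIR-99021 (25.3% called, against 14.7% of all genes). Compared with LY-364947 it was 16 and 2 (24.0%, against 14.1%). Over all genes, 6.62% were higher and 8.08% lower than in carbidopa, and 6.45% and 7.69% than in LY-364947. These counts between treatments include the 15 genes. Between LY-364947 and carbidopa, edgeR and DESeq2 called 0 of the 75, and 5 had an unadjusted p under 0.05. In the account of these genes, 3 changes in a row are in the order carbidopa, LY-364947 and CHIR-99021, on the log2 scale, and each change passed an adjusted p under 0.05 unless it is given as not called.

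Among 32 other regulators of muscle, 17 were tested, of which 1 rose and 9 fell under carbidopa, 2 and 9 under LY-364947, and 2 and 6 under CHIR-99021. Gata6, a factor of heart and endoderm development, had 134 and 112 reads in MEFs, 930 and 922 in carbidopa, 716 and 720 in LY-364947, and 780 and 844 in CHIR-99021. It rose by 2.34, 2.20 and 2.46 on the log2 scale (adjusted p = 1.10e-06, 1.75e-06 and 7.41e-07). Megf10, a receptor of muscle satellite cells that other cells also make, had 751 and 732 reads in MEFs, 15 and 21 in carbidopa, 32 and 19 in LY-364947, and 123 and 112 in CHIR-99021. The changes of Megf10 were -5.92, -5.20 and -2.92, the highest adjusted p being 1.22e-06. Eya4, a transcriptional coactivator that works with Six4 and its relatives, fell by 3.13, 3.14 and 3.74, and Six4 itself rose by 0.50 under LY-364947 (adjusted p = 0.0484) and by 0.68 under CHIR-99021, with 0.27 under carbidopa not called.

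Of 22 genes of the thin filament and troponin, 11 were tested, of which 2 rose and 5 fell under carbidopa, 2 and 7 under LY-364947, and 3 and 4 under CHIR-99021. Tpm1, a tropomyosin that non-muscle cells also make, had 9757 and 10771 reads in MEFs and 27187 to 48280 in treated libraries, and rose by 1.25, 1.16 and 1.91. Tnnc1, the calcium-binding troponin C of slow and cardiac muscle, went the opposite way to Tnnt2. It had 8 and 2 reads in MEFs, 35 and 36 in carbidopa, 25 and 30 in LY-364947, and 17 and 12 in CHIR-99021, and was called higher under carbidopa (2.23, adjusted p = 0.00835) and LY-364947 (2.08, adjusted p = 0.0143), with 1.25 under CHIR-99021 not called (adjusted p = 0.119). Tnnc1 passed the filter only through treated libraries. Actg2 fell by 3.90, 3.88 and 2.67, and the giant thin-filament protein Neb by 1.67, 1.45 and 1.37 from 29 and 32 reads in MEFs. Lmod1, an actin nucleator of smooth muscle, rose by 1.16 under CHIR-99021 and fell by 0.49 under carbidopa and by 0.63 under LY-364947.

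Of 31 thick filament and titin-system genes, 7 were tested, with 1 higher and 2 lower under carbidopa, 2 and 1 under LY-364947, and 1 and 3 under CHIR-99021. Obsl1, an obscurin-like linker, rose by 0.91, 1.00 and 0.81. Mylk2, the skeletal myosin light chain kinase, fell by 3.04, 2.04 and 2.59, from 24 and 22 reads in MEFs to between 4 and 9, and passed the filter only through MEFs. Fhod3 fell by 0.97 under carbidopa and by 0.73 under CHIR-99021, with -0.72 under LY-364947 not called (adjusted p = 0.0554). The M-band gene Myom2 fell by 1.58 under CHIR-99021, with -0.55 under carbidopa and -0.67 under LY-364947 not called.

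Of 27 Z-disc and intermediate filament genes, 17 were tested, with 2 higher and 8 lower under carbidopa, 2 and 9 under LY-364947, and 5 and 7 under CHIR-99021. Nes, an intermediate filament of progenitor cells, had 310 and 284 reads in MEFs and 1617 to 2427 in treated libraries, and rose by 2.46, 2.41 and 2.32. Synm, which joins with desmin, rose by 0.96, 1.38 and 0.79, in contrast to Des. The LIM protein gene Fhl2 fell by 3.18, 3.31 and 2.09, and its relative Fhl1 rose by 1.01 under CHIR-99021, with 0.03 under carbidopa and 0.05 under LY-364947 not called. Pdlim3 fell by 3.62, 3.11 and 2.57 from 12 and 24 reads in MEFs, and Actn3 by 3.27 under carbidopa and by 1.98 under LY-364947 from 21 and 20, with -1.29 under CHIR-99021 not called. Both passed the filter only through MEFs.

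Of 37 genes of the muscle membrane and calcium handling, 18 were tested, with 5 higher and 6 lower under both carbidopa and LY-364947, and 4 and 5 under CHIR-99021. Cacna1c, the L-type calcium channel of heart and smooth muscle, had 629 and 706 reads in MEFs and 33 to 145 in treated libraries. It fell by 4.28, 3.67 and 2.48. The delta-sarcoglycan gene Sgcd fell by 3.25, 2.61 and 3.51. Chrnb1, a subunit of the acetylcholine receptor, rose by 0.91, 1.16 and 1.25. Sgce rose by 0.59 under carbidopa, with 0.35 under LY-364947 and -0.02 under CHIR-99021 not called. Jph2 rose by 0.98 under CHIR-99021, with 0.25 under carbidopa and 0.06 under LY-364947 not called. Popdc3 had 15 and 26 reads in MEFs, 6 and 3 in carbidopa, 8 and 1 in LY-364947, and 0 and 2 in CHIR-99021, was called lower in each (adjusted p = 0.0168, 0.0287 and 0.00476) and passed the filter only through MEFs. Trdn, which anchors calsequestrin, had 1 and 1 reads in MEFs, 21 and 20 in carbidopa, 18 and 26 in LY-364947, and 14 and 13 in CHIR-99021. Pln, the inhibitor of the calcium pump, had 0 and 1, then 4 and 23, 35 and 27, and 10 and 12. Both were called higher in all 3 comparisons, with adjusted p from 6.99e-04 to 0.00271 for Trdn and from 0.00333 to 0.0300 for Pln, and both passed the filter only through treated libraries. Other genes of the calcium store differed among themselves. Casq2, a calsequestrin, had 0 and 3 reads in MEFs, 14 and 14 in carbidopa, 15 and 21 in LY-364947, and 9 and 9 in CHIR-99021. Ryr2, a calcium release channel, had 0 and 3, then 6 and 12, 15 and 12, and 4 and 5. Both also passed the filter only through treated libraries. Atp2a2 showed no such rise, and Ryr1 had too few reads to show a rise or its absence. The pump gene Atp2a2 had 4947 to 7993 reads and was not called in any treatment (-0.11, -0.04 and 0.23). The release channel Ryr1 had 2 to 6 reads in each library and was not tested. Atp2a1, another calcium pump, had 0 reads in both MEF libraries, 10 and 9 in carbidopa, 1 and 0 in LY-364947, and 1 and 0 in CHIR-99021. Casq1, another calsequestrin, had 3 and 3, then 12 and 6, 6 and 7, and 8 and 4. Atp2a1 and Casq1 were not tested either.

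Of 13 genes of muscle energy metabolism, 5 were tested, with 2 higher and 1 lower in every treatment. Pdk4, which diverts pyruvate from oxidation, rose by 1.62, 1.71 and 1.08. Pfkm, the muscle phosphofructokinase, rose by 0.93, 0.82 and 0.68. Fabp3, a fatty acid carrier of heart, fell by 0.52, 0.84 and 0.68.

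**Figure D4:**
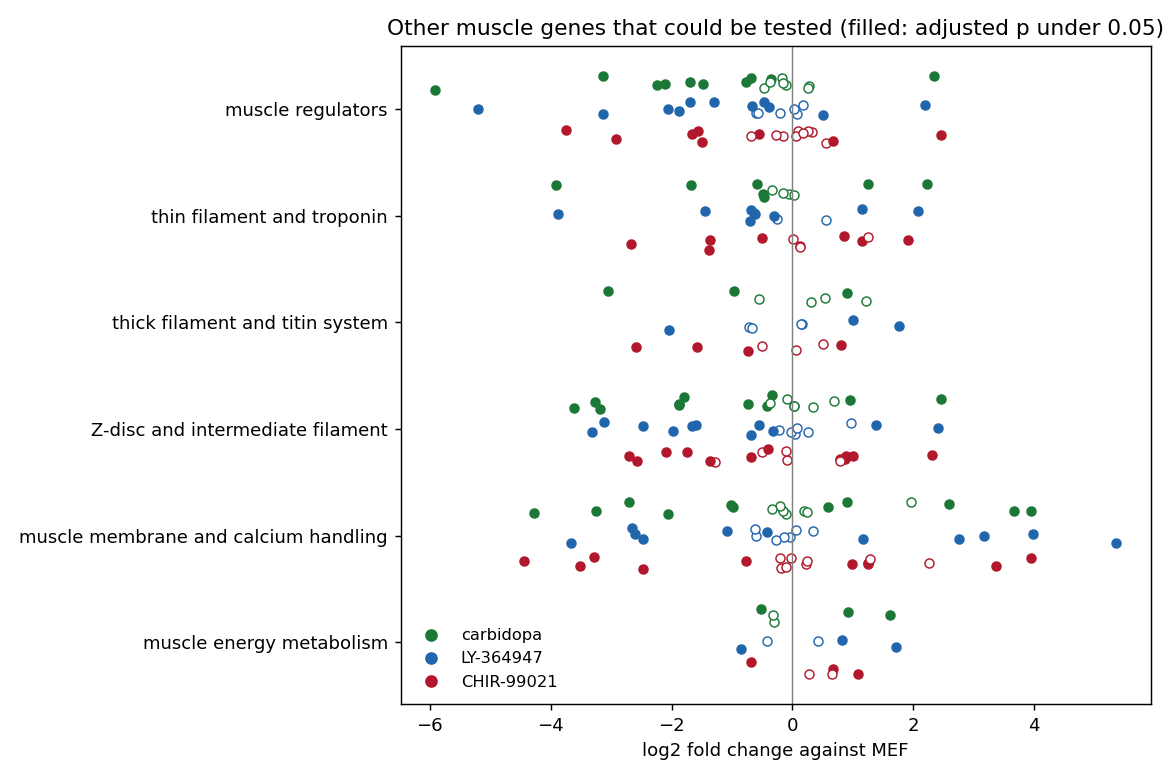
Log2 fold change against MEFs (horizontal axis) of the 75 other muscle genes tested, in 6 groups (vertical axis), with filled points for an adjusted p under 0.05. Genes lie on both sides of 0 in every group and treatment, with more calls below 0 than above it in total: 31 against 13, 33 against 15 and 26 against 17.

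Summed levels of markers of other cells also differed between MEFs and treated libraries, but not all in the same direction. The summed level of 10 smooth muscle markers was 3200 to 3453 CPM in MEFs, 481 to 523 in carbidopa, 444 to 480 in LY-364947 and 785 to 894 in CHIR-99021, and of the 10 tested 9, 9 and 8 were lower, with 1 higher under CHIR-99021. None of them was at 0 in any library. The list includes Actg2 and Lmod1, which were also counted above. The log2 fold changes, in the same order of treatments, were -4.51, -4.32 and -4.17 for Acta2, -3.05, -3.16 and -0.93 for the contractile gene Cnn1, -1.60, -1.99 and -0.59 for Tagln, and -2.64, -2.93 and -1.74 for the smooth muscle myosin Myh11. The summed level of 8 macrophage markers was 305 to 328 CPM in MEFs, 107 to 122 in carbidopa, 91.8 to 92.1 in LY-364947 and 27.9 to 29.7 in CHIR-99021, with 7, 7 and 8 of 8 lower and none at 0. Of 12 fibroblast markers 11 were tested, and 8 were lower and 1 higher in each treatment, with sums of 32999 to 33146 CPM in MEFs and 7993 to 11444 in the treated libraries. Over all genes tested, 19.7%, 17.2% and 20.1% were called lower in the same order of treatments, and 18.0%, 13.7% and 18.7% higher. Neural markers summed to 65.8 to 71.7 CPM in MEFs and 9.49 to 12.8 in treated libraries. Map2 carried most of the MEF sum, at 50.3 and 47.4 CPM, followed by Tubb3 at 16.9 and 12.6. Elavl4 was higher in every treated library than in MEFs. Endothelial markers summed to 16.8 to 19.5 and 11.3 to 15.6, and epithelial markers to 0.967 to 1.04 and 1.38 to 6.76. Of 6 neural markers tested 2, 2 and 3 were called lower, and of 3 endothelial 1, 1 and 2, with none higher. Of 4 epithelial markers tested 2, 0 and 2 were called higher and none lower. The part of these cells in the levels of Des, Acta1 and Tnnt2 was not tested.

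Most of the defining markers of striated muscle had few reads. Of 10 skeletal muscle markers, 2 were tested. Ckm had 8 reads over all libraries, Mylpf 34, Tnni2 19, Tnnt3 19, Atp2a1 21 and Cav3 1, beside the 1 read of Myod1 and 2 of Myog. Most reads of Atp2a1 were in carbidopa. Acta1 and Chrna1 carried the sum, which was 18.6 to 20.2 CPM in MEFs, 3.26 to 3.62 in carbidopa, 0.953 to 1.49 in LY-364947 and 7.65 to 9.55 in CHIR-99021. Of 10 cardiac markers, Nkx2-5 had 2 reads, Myl7 2, Mybpc3 4, Myh6 7 and Nppa 16, while Actn2 had 41, Tnni3 46, Ryr2 57 and Myl4 133 over all libraries. Of the 4 cardiac markers tested, Actn2 was lower under LY-364947 (adjusted p = 0.0349) and CHIR-99021 (adjusted p = 0.0236), and Ryr2 was higher under LY-364947 (adjusted p = 0.0301). Actn2 passed the filter only through MEFs and Ryr2 only through treated libraries. The sum of the cardiac list was 16.8 to 16.9 CPM in MEFs and 16.3 to 21.5 in treated libraries. It was carried by Tbx5, a factor of heart and forelimb that did not pass the test in any treatment (log2 fold changes of 0.26, 0.17 and 0.17). In MEFs, Des had 894 reads over both libraries, Acta1 506 and Tnnt2 383, where the 4 regulators together had 2.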

How the data were processed

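RNA-seq was performed on 8 libraries, 2 per group, sequenced as paired reads. Per the labels and the methods, the authors mapped reads to mm10 with STAR 2.4.2a and counted them per gene with featureCounts. The deposited values are raw counts without normalization, and the methods state normalization by DESeq2 for their own figures. The labels name a SMARTER library kit and the methods a NEBNext Ultra kit. The annotation release and the strand setting are not given in the sources used here.

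Groups came from the sample labels. Total counts ranged from 15039566 to 20504338, and the 10 most abundant genes took 6.34% to 10.5% of them. The 2 libraries of each group differed beyond counting noise. Tests were run in R 4.3.3 with edgeR 4.0.16 (TMM, filterByExpr, quasi-likelihood test) in a single model of the 8 libraries with no covariate beside group, which kept 15154 genes, and adjusted by Benjamini-Hochberg over those genes. The script was tested on simulated data. SE is the log2 fold change over the root of the F statistic. Intervals are 95%: from the fit for log2 fold changes, and exact conditional binomial for ratios of pooled reads.

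Gene positions and exon lengths are from GENCODE M21, in which 99.6% of the gene identifiers were found, and promoter windows are from RefSeq. Alternatives were DESeq2 1.42.0, RLE size factors, no filter, at least 10 counts in every library, only the groups compared, a replicate block and leaving out each library. Named genes of each muscle list were up to 2 rises and 2 falls per treatment with the largest change among called genes with both treated libraries beyond both MEF libraries, where the higher group averaged at least 1 CPM. Genes alike were the 3 with the highest r. Single marker genes were named only where a result turned on them. The hepatocyte genes, and the calcium store genes Atp2a1, Atp2a2, Ryr1, Ryr2, Casq1 and Casq2, were named after their values were seen. The genes, lists and tests were chosen with earlier results of these data known.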

Additional observations from a re-analysis of the deposited data

How the results depend on the processing

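Against MEFs, Des, Acta1 and Tnnt2 kept their direction and their call under each alternative that tested them. With at least 10 counts in every library, Des and Ttn were the only muscle genes left to test, and the calls numbered 2 under CHIR-99021, 1 under LY-364947 and 1 under carbidopa, and 0 for CHIR-99021 against carbidopa and 0 against LY-364947. With only the groups compared in the fit, the calls were 1 for CHIR-99021 against carbidopa and 2 for CHIR-99021 against LY-364947. Without a filter they were 3 for CHIR-99021 against LY-364947 and 1 for LY-364947 against carbidopa, the latter being Acta1 (adjusted p = 0.0263 in edgeR).

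With each library left out in turn, the calls ranged from 3 to 3 in each comparison with MEFs, from 1 to 2 for CHIR-99021 against carbidopa, from 1 to 1 for CHIR-99021 against LY-364947 and from 0 to 2 for LY-364947 against carbidopa. The 2 calls of the last came without carbidopa replicate 2, for Acta1 (adjusted p = 0.0126) and Des (adjusted p = 0.0145). The other muscle genes called numbered 30 to 35 under LY-364947, 33 to 37 under CHIR-99021 and 31 to 49 under carbidopa. The 30 came without LY-364947 replicate 2. These fits assume that a lone library varies like the other groups. The difference of Des between CHIR-99021 and carbidopa turned to -0.064 without carbidopa replicate 2 (range -0.064 to 0.44 over the libraries left out), and that of Tnnt2 between LY-364947 and carbidopa turned to -0.35 without carbidopa replicate 2 and to -0.35 without LY-364947 replicate 1 (range -0.35 to 4.02). Of these differences, none had passed the threshold.

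The replicate numbers did not pair the libraries (correlation of same-numbered deviations -0.16 to 0.13). With a replicate block the Ttn difference under CHIR-99021 was 1.03 on the log2 scale and lost its call (adjusted p = 0.0615 in edgeR). On unscaled totals the mean level in MEFs was 27.4 CPM for Des, 15.6 for Acta1 and 11.8 for Tnnt2, and that of Ttn with LY-364947 was 1.76. Depth limits Myod1, Myog, Myf5, Pax7, Actc1 and Myh3, for which differences could not be detected. The causes of these changes were not tested, apart from the smaller number of genes tested under the stricter filter.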

Other observations

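The ratio of the skeletal to the smooth muscle actin differed between treatments, although both RNAs fell in all of them. Acta1 had 8.64 and 8.35 reads per 1000 reads of Acta2 in MEFs, 11.5 and 7.15 under carbidopa, 2.46 and 2.28 under LY-364947, and 44.2 and 50.3 under CHIR-99021. Acta2 itself differed by 0.14 on the log2 scale between CHIR-99021 and LY-364947 (95% interval -0.21 to 0.50, adjusted p = 0.594 in edgeR's quasi-likelihood test), whereas Acta1 differed by 4.40. Cnn1 was higher in CHIR-99021 than in LY-364947 by 2.23, Tagln by 1.40 and Myh11 by 1.18 (adjusted p = 1.34e-04, 3.34e-04 and 0.00318). Over all genes tested, 6.45% were called higher and 7.69% lower. The other smooth muscle markers differed. Actg2, Lmod1, Smtn and Mylk were also higher in both CHIR-99021 libraries than in both LY-364947 libraries, and Synpo2 overlapped. Itga8 was lower, at 57.4 and 61.4 CPM in CHIR-99021 against 89.3 and 94.3 in LY-364947. A ratio within a library shows unequal change and does not say which RNA moved.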
